A study of Rattus norvegicus with 8 samples.

Results

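The subject here is a set of 9 genes known as targets of the transcription factor p53 (Rbm38, Bax, Mdm2, Cdkn1a, Ccng1, Btg2, Gadd45a, Gadd45b and Atf3), out of 12206 genes that could be named on the array. Their signals were read in the hippocampus of 8 male Wistar rats, 1 Agilent 1-colour array per rat. The 4 control rats ate standard CE-2 feed, and the feed of the 4 CCH rats held in addition 0.1% of a powder of coral calcium hydride (CCH), a hydrogen-bearing coral calcium product, from 6 to 8 weeks of age. Neither group carried a transgene or had another treatment, as far as the titles and treatment labels say. The free-text sample descriptions speak instead of a Parkinson's disease model, and the groups here follow the titles. All control arrays were on 1 slide and all CCH arrays on the other, scanned separately, so an effect of the diet and one of the slide or its scan cannot be told apart throughout.

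The 9 genes were chosen by name as p53 targets and with measured values of this same diet comparison already known. Differences between the diets are therefore given for them as a description, with no p-value, and the number of their probes that limma called in the fit over all probes is given as a count from which nothing is read. Every array probe of these genes was taken: 3 genes had 2 probes and 6 had 1, which gave 12 probes. Of these, 11 probes, covering all 9 genes, passed the filter on dim signal (signal well above background on 4 or more of the 8 arrays) and were well above background on all 8 arrays. The remaining probe, A_44_P515275 for Cdkn1a, was well above background on 1 control array and 1 CCH array. Signals are log2 values with each array's 75th percentile set to 0, so that a value of 1 is a signal 1 log2 unit above that percentile, and differences are CCH minus control. Signals were compared between rats for the same probe or the same sum of marker probes, and the signal of 1 gene was not read against that of another as an amount of RNA.

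p53 is held at a low level by the ubiquitin ligase MDM2 and accumulates after DNA damage and other stresses, when it switches on genes for cell cycle arrest, DNA repair and cell death. Several of those genes act back on p53: Mdm2 marks it for degradation, and the RNA-binding protein RBM38 lowers its translation. In the brain a number of the same genes, among them Btg2, Gadd45b and Atf3, are also induced by synaptic activity or injury without p53.

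The 250 bases before the annotated transcription start were searched on both strands for the p53 site, because binding close to the start is one way in which p53 reaches such genes. The sequences are from RefSeq (assembly GRCr8), whose table held 7 of the 9 genes, all but Bax and Atf3. A p53 half-site, with every one of its 10 letters matched, was in 6.64% of 33469 promoter windows of this length, and a full site of 2 adjoining half-sites with at most 2 mismatches was in 0.720%. Cdkn1a had a full site with 1 mismatch at bases 201 to 182 before its start in that table. Ccng1 had a full site with 1 mismatch at bases 242 to 223. Each contains a matched half-site. Starts of a gene that the table does not hold were not searched, and the Cdkn1a start used here may not be its main one. Gadd45a had a half-site alone, at bases 48 to 39. In the windows of Rbm38, Mdm2, Btg2 and Gadd45b these letters were not found. The cyclic AMP response element TGACGTCA, present in 1.59% of windows, was found in Btg2 alone among the 7 genes, at bases 201 to 194. The CCAAT box (CCAAT, in 34.0% of windows) and the GC box (GGGCGG, in 30.5%) both occurred in Mdm2, Ccng1, Btg2, Gadd45a and Gadd45b. Neither box was in this Cdkn1a window or in the first Rbm38 window. A second Rbm38 start in the table, with the window chr3:182220113-182220362, had 2 GC boxes and no p53 site. These matches describe the letters only and say nothing about binding in these rats. The windows of 5 genes are shown 5′ to 3′ on the gene's strand: Rbm38, whose signal differed most, with no site; Cdkn1a and Ccng1 with the p53 full site in capitals; Gadd45a with its half-site in capitals; and Btg2 with the cyclic AMP response element in capitals. They lie at chr3:182219669-182219918 (plus strand) for Rbm38, chr20:7150682-7150931 (plus) for Cdkn1a, chr10:25684877-25685126 (minus) for Ccng1, chr4:97486800-97487049 (minus) for Gadd45a and chr13:48087691-48087940 (minus) for Btg2.
Rbm38: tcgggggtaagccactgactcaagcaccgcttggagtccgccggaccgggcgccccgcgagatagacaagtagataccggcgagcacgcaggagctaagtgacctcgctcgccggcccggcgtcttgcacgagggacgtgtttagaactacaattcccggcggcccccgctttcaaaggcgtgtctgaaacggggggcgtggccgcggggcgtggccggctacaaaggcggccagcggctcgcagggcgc
Cdkn1a: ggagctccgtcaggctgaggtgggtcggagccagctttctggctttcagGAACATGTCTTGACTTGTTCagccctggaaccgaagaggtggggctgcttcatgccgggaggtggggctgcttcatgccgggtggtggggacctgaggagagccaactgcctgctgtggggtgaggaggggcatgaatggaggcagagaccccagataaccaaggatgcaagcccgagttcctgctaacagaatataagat
Ccng1: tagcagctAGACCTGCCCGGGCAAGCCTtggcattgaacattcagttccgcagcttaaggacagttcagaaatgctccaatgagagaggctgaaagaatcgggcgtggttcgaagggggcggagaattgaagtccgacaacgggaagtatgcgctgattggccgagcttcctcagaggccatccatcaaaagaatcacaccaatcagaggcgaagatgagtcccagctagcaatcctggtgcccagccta
Gadd45a: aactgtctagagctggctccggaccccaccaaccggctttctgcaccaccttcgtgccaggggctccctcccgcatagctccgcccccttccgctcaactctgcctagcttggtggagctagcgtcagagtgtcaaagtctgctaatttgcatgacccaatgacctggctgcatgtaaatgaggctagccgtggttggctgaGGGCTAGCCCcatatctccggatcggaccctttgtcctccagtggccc
Btg2: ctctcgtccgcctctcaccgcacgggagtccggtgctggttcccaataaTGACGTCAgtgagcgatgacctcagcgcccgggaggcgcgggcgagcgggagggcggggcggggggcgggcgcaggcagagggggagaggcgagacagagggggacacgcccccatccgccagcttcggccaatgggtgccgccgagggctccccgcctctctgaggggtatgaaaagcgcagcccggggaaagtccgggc

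Between the diets the 9 genes went different ways. Rbm38 was far higher in all CCH rats, Bax and Gadd45a were slightly higher, Gadd45b and Atf3 were lower, and Btg2, Cdkn1a, Mdm2 and Ccng1 had overlapping groups. Of the 11 tested probes 7 were higher and 4 lower in CCH rats, with a median difference of 0.16, beside 0.03 over all 31618 tested probes, of which 55.1% were higher. The groups did not overlap for 5 of the 11 (3 higher, 2 lower); over all tested probes this held for 11.3%, with 6.59% higher and 4.70% lower in CCH rats. Limma called 1 of the 11, Rbm38, at an adjusted p under 0.05 over all probes, where 0.174% of all tested probes were called. That count was 0 when any 1 array other than CCH replicate 1 was left out, and 3 without CCH replicate 1. Over all tested probes the calls were 0 or 1 when any 1 array other than CCH replicate 1 was left out, and 729 without CCH replicate 1. Since the genes were chosen with this contrast in view, nothing is read from these shares.

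**Figure D1:**
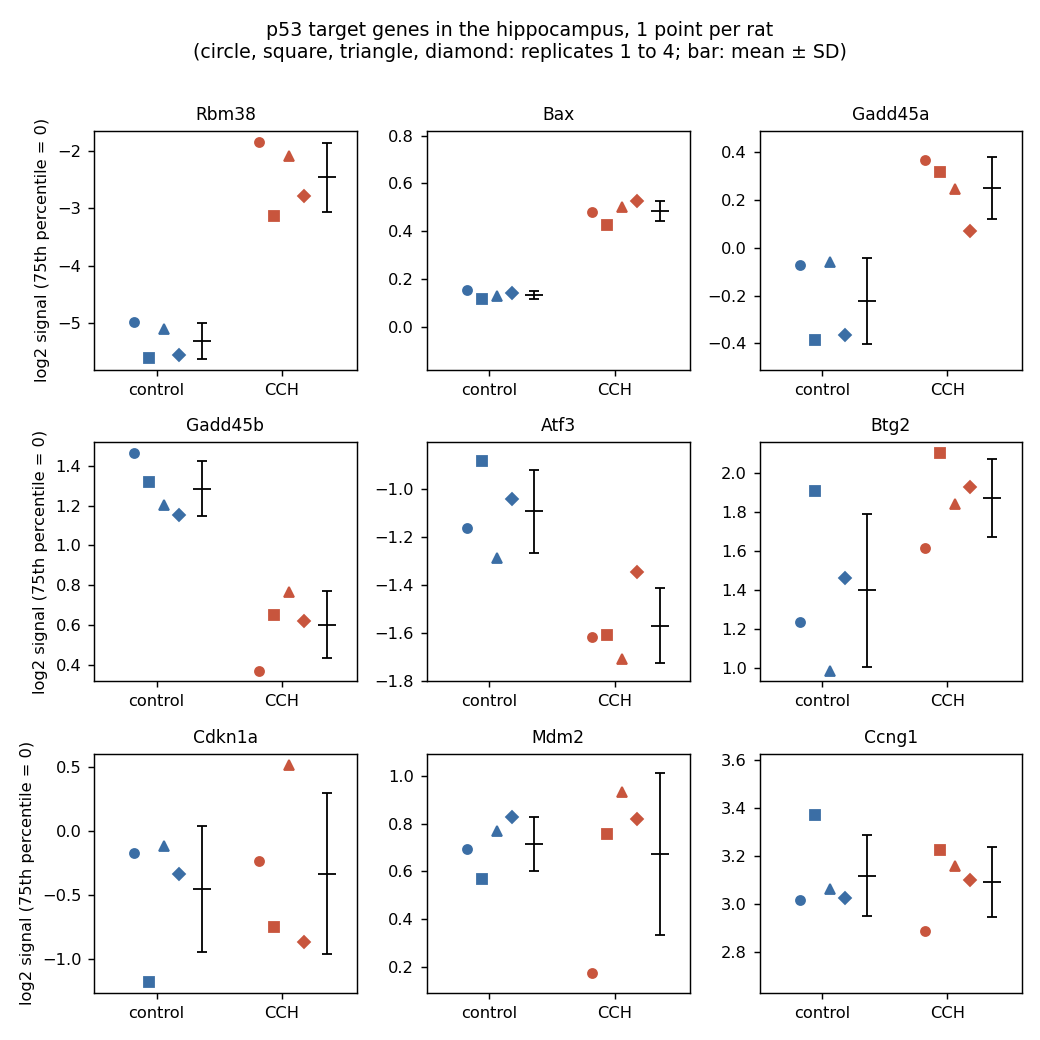
Each panel shows the brightest tested probe of 1 gene as log2 signal (75th percentile of the array set to 0), with 1 point per rat for 4 control and 4 CCH rats and a bar for mean ± SD. Vertical scales differ between panels. The groups are apart for Rbm38, Bax, Gadd45a, Gadd45b and Atf3 and overlap for the other 4 genes.

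Rbm38 encodes an RNA-binding protein that is induced by p53, stabilises the Cdkn1a message and reduces the translation of p53. Its single probe, A_44_P126355, had 1 spot per array. The log2 signal was -4.99, -5.62, -5.11 and -5.55 in control rats 1 to 4. In CCH rats 1 to 4 it was -1.83, -3.13, -2.09 and -2.78. Every CCH rat was thus above every control rat, with 1.86 log2 units between the highest control and the lowest CCH rat. The mean was -5.32 ± 0.32 (SD, n = 4) in control and -2.45 ± 0.60 (SD, n = 4) in CCH rats, a difference of 2.86 ± 0.29 (SE), or 7.27-fold. Among the 31618 tested probes 5 had a larger absolute difference and 1 a larger increase.

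The Rbm38 signal was dim in the controls. The background-subtracted signal, before any scaling between arrays, was 22.0, 11.5, 17.3 and 12.4 intensity units in control rats 1 to 4 and 248, 85.7, 155 and 93.5 in CCH rats 1 to 4. The local background around the spot was 32.5 to 37 units on the 8 arrays. Median signal minus local background gave 24, 15, 20 and 12 units in the controls and 255, 89, 157 and 92.5 in CCH rats, so both ways of subtracting the background set the groups apart. No array had an outlier mark on this spot. The 8 spots next to it on the glass differed between the diets by -0.26 to 0.15 log2. They hold other spots alone, and an effect of the slide on the Rbm38 spot itself was not tested. With normexp background correction, which adds an offset and so compresses dim signals, the difference was 1.18. Leaving out 1 array at a time gave 2.65 to 3.09.

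Bax encodes a pore-forming protein of the mitochondrial outer membrane that drives cell death. Its probe, A_43_P11800, was printed in 10 spots per array. The log2 signal was 0.15, 0.12, 0.13 and 0.14 in control rats 1 to 4 and 0.48, 0.43, 0.50 and 0.52 in CCH rats 1 to 4. The rats of each group lay close together, and the groups did not overlap. The mean was 0.13 ± 0.02 (SD, n = 4) in control and 0.48 ± 0.04 (SD, n = 4) in CCH rats, a difference of 0.35 ± 0.07 (SE) or 1.27-fold. The 10 spots of 1 array had an SD of 0.04 to 0.10 log2, which is not below the SD of either group at this precision. The SE of Bax comes from a spread of 0.10, which limma drew towards that of other probes, where the rats themselves gave 0.03. Leaving out 1 array at a time gave a difference of 0.34 to 0.37.

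Gadd45a and Gadd45b encode related small stress proteins that act in DNA repair, DNA demethylation and p38 kinase signalling, and they went in opposite directions. The log2 signal of Gadd45a was -0.07, -0.39, -0.06 and -0.37 in control rats 1 to 4 and 0.37, 0.32, 0.24 and 0.07 in CCH rats 1 to 4. All CCH rats were above all controls, by 0.13 at the nearest pair. The Gadd45a difference was 0.47 ± 0.12 (SE, n = 4 per group), or 1.39-fold. For Gadd45b the log2 signal was 1.46, 1.32, 1.20 and 1.15 in control rats 1 to 4 and 0.37, 0.65, 0.77 and 0.62 in CCH rats 1 to 4. All CCH rats were below all controls. Its mean was 1.28 ± 0.14 (SD, n = 4) in control and 0.60 ± 0.17 (SD, n = 4) in CCH rats, a difference of -0.68 ± 0.12 (SE) or 1.60-fold lower. The third gene of this family, Gadd45g, differed by 0.21 ± 0.15 (SE; limma adjusted p = 0.566).

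Atf3 encodes a stress-induced repressor of the ATF/CREB family. The log2 signal was -1.16, -0.88, -1.29 and -1.04 in control rats 1 to 4 and -1.62, -1.61, -1.71 and -1.35 in CCH rats 1 to 4. The groups did not overlap, but the lowest control and the highest CCH rat were 0.06 apart. The difference was -0.48 ± 0.12 (SE, n = 4 per group), or 1.39-fold lower in CCH rats.

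Btg2 encodes an antiproliferative cofactor of messenger RNA deadenylation. The log2 signal was 1.23, 1.91, 0.99 and 1.47 in control rats 1 to 4 and 1.62, 2.11, 1.84 and 1.93 in CCH rats 1 to 4. Its groups overlapped, since control rat 2 was above CCH rats 1 and 3. The difference of 0.47 ± 0.20 (SE, n = 4 per group) came with an SD between rats of 0.39 in control and 0.20 in CCH.

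**Figure D2:**
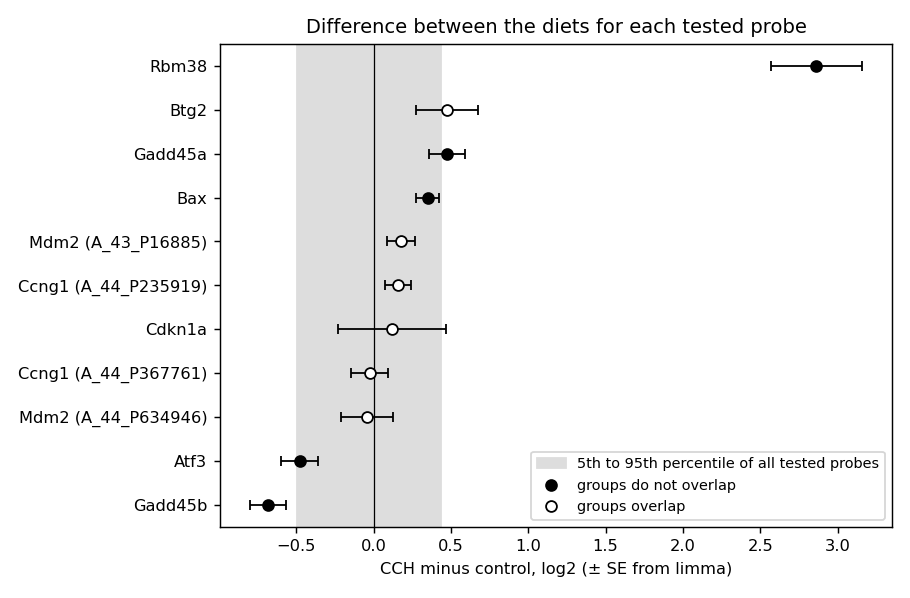
Horizontal axis: difference between diets in log2, CCH minus control, with the SE from limma; vertical axis: the 11 tested probes of the 9 genes, 4 rats per group. Filled points are probes whose groups do not overlap, and the grey band spans the 5th to 95th percentile of all tested probes (-0.49 to 0.43); Rbm38 lies at 2.86, and the other probes lie between -0.68 and 0.47.

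Cdkn1a encodes p21, the inhibitor of cyclin-dependent kinases through which p53 arrests the cell cycle. Its bright probe, A_44_P914438, was also printed in 10 spots. The log2 signal was -0.17, -1.18, -0.12 and -0.34 in control rats 1 to 4 and -0.23, -0.76, 0.52 and -0.87 in CCH rats 1 to 4. The groups covered the same range. The difference was 0.12 ± 0.35 (SE, n = 4 per group), with SDs between rats of 0.49 in control and 0.63 in CCH. The 10 spots of 1 array had an SD of 0.05 to 0.11, which covers spot-to-spot error alone and not that of dissection, labelling or hybridisation. The dim probe, A_44_P515275, was well above background in control rat 1 and CCH rat 3 alone, and no difference is given for it. Over the 8 arrays the 2 Cdkn1a probes had a Pearson r of 0.789, given as a description.

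Mdm2, the ligase that degrades p53, had 2 probes. The log2 signal of the brighter, A_44_P634946, was 0.69, 0.57, 0.77 and 0.83 in control rats 1 to 4 and 0.18, 0.76, 0.93 and 0.82 in CCH rats 1 to 4. CCH rat 1 lay below all others, and the remaining 7 overlapped. The difference was -0.04 ± 0.17 (SE, n = 4 per group), or 0.12 without CCH replicate 1. The dimmer probe, A_43_P16885, ran from -2.62 to -2.45 in control and from -2.46 to -2.23 in CCH rats, which overlapped by 0.01. Its difference was 0.18 ± 0.09 (SE), and 0.05 with normexp.

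Ccng1 encodes cyclin G1, a p53-induced partner of a phosphatase that activates MDM2. Its probe A_44_P367761 ran from 3.01 to 3.37 in control and from 2.88 to 3.22 in CCH rats, with a difference of -0.03 ± 0.12 (SE, n = 4 per group). That sign turned under 4 of 19 other settings. Its other probe, A_44_P235919, ran from 2.81 to 3.06 and from 3.01 to 3.12, with a difference of 0.16 ± 0.08 (SE). Both Ccng1 probes had overlapping groups.

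In bulk tissue, fewer cells of a type and less RNA per cell cannot be told apart, and markers of neighbouring tissue varied between these rats. Of the neuron markers 8 of 8 tested were well above background on all 8 arrays. These genes had already passed the filter on dim signal, and 76.3% to 79.9% of all spots were well above background. The count therefore does not check the labelled tissue. Of 10 tested choroid plexus and ependyma markers 10 were lower in CCH rats, none of them called (0 with an unadjusted limma p under 0.05). Their summed signal, in multiples of an array's 75th percentile, was 250, 38.8, 261 and 173 in control rats 1 to 4 and 111, 5.47, 194 and 5.18 in CCH rats 1 to 4. Control rat 2 and CCH rats 2 and 4 were the lowest, and the same 3 rats had the lowest Cdkn1a signals. Within each diet Rbm38 was also lower in rats 2 and 4 than in rats 1 and 3. Btg2 and Atf3 had the reverse order and were higher in rats 2 and 4 than in rats 1 and 3 within each diet. Ttr, which encodes the transthyretin of choroid plexus, ran from 4.95 to 7.79 in control and from 0.56 to 7.34 in CCH rats. The summed signal of 8 meninges and fibroblast markers ran from 37.0 to 397 in control and from 53 to 143 in CCH rats. Of 10 oligodendrocyte markers 10 were higher in CCH rats, none of them called (6 with an unadjusted limma p under 0.05). Their mean log2 signal ran from 2.85 to 3.12 in control and from 3.27 to 3.55 in CCH rats, without overlap, and their summed signal from 268 to 323 and from 288 to 384. All 10 were well above background on every array. Of 5 oligodendrocyte precursor markers 4 were higher, none of them called (3 with an unadjusted limma p under 0.05). Their mean log2 signal ran from -0.24 to -0.11 in control and from -0.0025 to 0.20 in CCH rats, without overlap, and their summed signal from 12.2 to 14.0 and from 11.3 to 14.7. Of 10 microglia markers 8 were lower, none of them called (3 with an unadjusted limma p under 0.05), with summed signals of 43.9 to 49.7 in control and 32.7 to 43.9 in CCH rats. The mean levels of the neuron, astrocyte, endothelium and pericyte, and erythroid lists overlapped between the diets. The part of these cells in the differences of Rbm38, Bax, Gadd45a, Gadd45b and Atf3 was not tested.

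**Figure D3:**
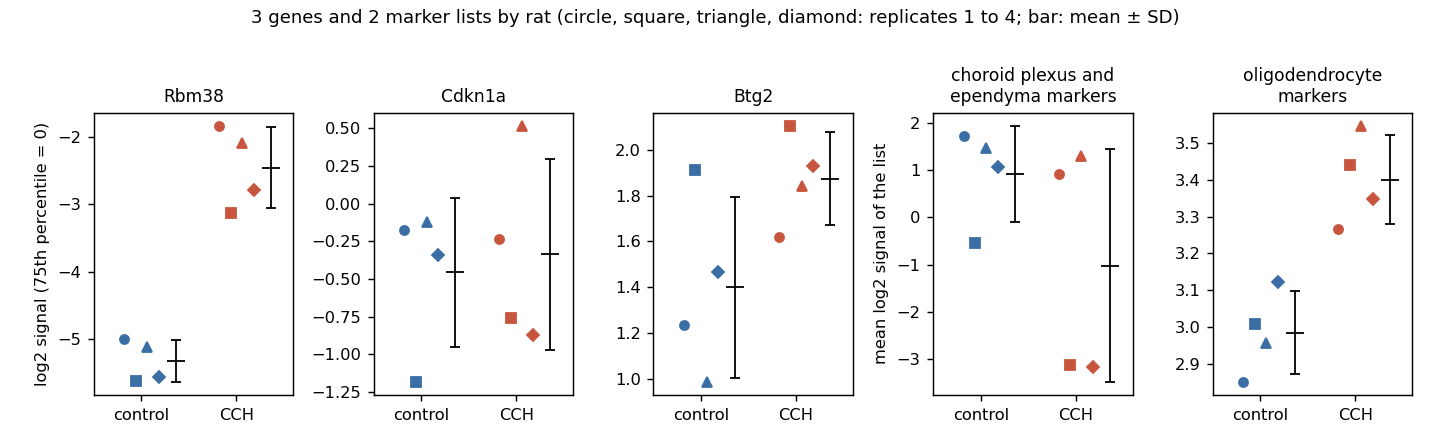
Left 3 panels: log2 signal of Rbm38, Cdkn1a and Btg2; right 2 panels: mean log2 signal of the choroid plexus and ependyma markers and of the oligodendrocyte markers, for 4 control and 4 CCH rats with mean ± SD. Cdkn1a is lowest in the 3 rats with the lowest choroid plexus level, and the oligodendrocyte level is higher in all 4 CCH rats than in any control. Within each diet Btg2 is higher in rats 2 and 4 than in the others.

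The other genes of the pathway were taken from 8 lists of p53 regulators, further p53 targets, paralogs of the 9 genes and messages bound by RBM38, with the brightest tested probe of each gene. Of 88 such genes 42 were higher and 46 lower in CCH rats, with a median difference of -0.01, and limma called 1 of them over all probes (13 with an unadjusted p under 0.05, a measure that 15.4% of all tested probes met). That gene was Usp7, whose product removes ubiquitin from MDM2 and p53. The Usp7 log2 signal was 1.50, 1.31, 1.40 and 1.30 in control rats 1 to 4 and 0.66, 0.74, 0.75 and 0.79 in CCH rats 1 to 4. The groups did not overlap, and Usp7 fell by 0.64 ± 0.08 on the log2 scale (SE, n = 4 per group, limma adjusted p = 0.0399; 0.0201 to 0.172 over the other settings). A second Usp7 probe, A_44_P340448, differed by -0.16 ± 0.11 (SE, limma adjusted p = 0.545). The call of the first probe was lost without any 1 of the 7 arrays other than CCH replicate 1, and over all 8 left-out arrays the difference was -0.67 to -0.60.

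Among p53 and its regulators, 4 of 14 tested genes were higher and 10 lower, with a median of -0.06 and Usp7 as the single call (3 lower with an unadjusted limma p under 0.05). Tp73, a p53 relative, differed by -0.87 ± 0.28 (SE, limma adjusted p = 0.202). Its signal was dim, with means of -4.86 in control and -5.73 in CCH rats. It was well above background in 3 of 4 CCH rats, and its difference was -0.36 with normexp. Rchy1, another ligase that targets p53, differed by 0.34 ± 0.24 (SE, limma adjusted p = 0.555), and by 0.61 without CCH replicate 1, where it was called.

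Among DNA damage sensing kinases and mediators, 7 of 12 tested genes were higher and 5 lower, with a median of 0.08 and no call (1 higher and 2 lower with an unadjusted limma p under 0.05). The kinase gene Atm differed by -0.33 ± 0.12 (SE, limma adjusted p = 0.243), Rad50 of the break-sensing complex by -0.29 ± 0.10 (SE, limma adjusted p = 0.213), and the histone gene H2ax by 0.27 ± 0.12 (SE, limma adjusted p = 0.313).

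Further p53 targets of cell cycle arrest had 7 of 8 tested genes higher, with a median of 0.21 and no call (1 with an unadjusted limma p under 0.05). Among the 7 were Ccnb1 (0.19) and Cdk1 (0.25), which drive cell division and which p53 lowers. The count is therefore not one of p53-induced genes alone. Plk2, a polo-like kinase that is also activity-induced in neurons, was at 1.26 ± 0.10 (SD, n = 4) in control and 1.77 ± 0.08 (SD, n = 4) in CCH rats. Its groups did not overlap, with a difference of 0.52 ± 0.09 (SE, limma adjusted p = 0.0567). It was called under 4 of 19 other settings, among them without CCH replicate 1, at 0.55 (limma adjusted p = 0.0355; 0.0347 to 0.172 over the other settings). Targets of cell death were split evenly, 6 of 12 higher, with a median of 0.00 and no call (1 higher with an unadjusted limma p under 0.05). The nuclease gene Aen differed by 0.36 ± 0.12 (SE, limma adjusted p = 0.220), and Bbc3, which encodes the BAX activator PUMA, by -0.04 ± 0.15 (SE, limma adjusted p = 0.931). Targets of DNA repair had 3 of 7 higher, with a median of -0.07 and no call (0 with an unadjusted limma p under 0.05). Targets of metabolism, redox and matrix had 6 of 18 higher, with a median of -0.04 and no call (1 higher with an unadjusted limma p under 0.05). Of these, the sestrin gene Sesn2 differed by -0.29 ± 0.25 (SE, limma adjusted p = 0.636), and by -0.57 without CCH replicate 1, where it was called.

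**Figure D4:**
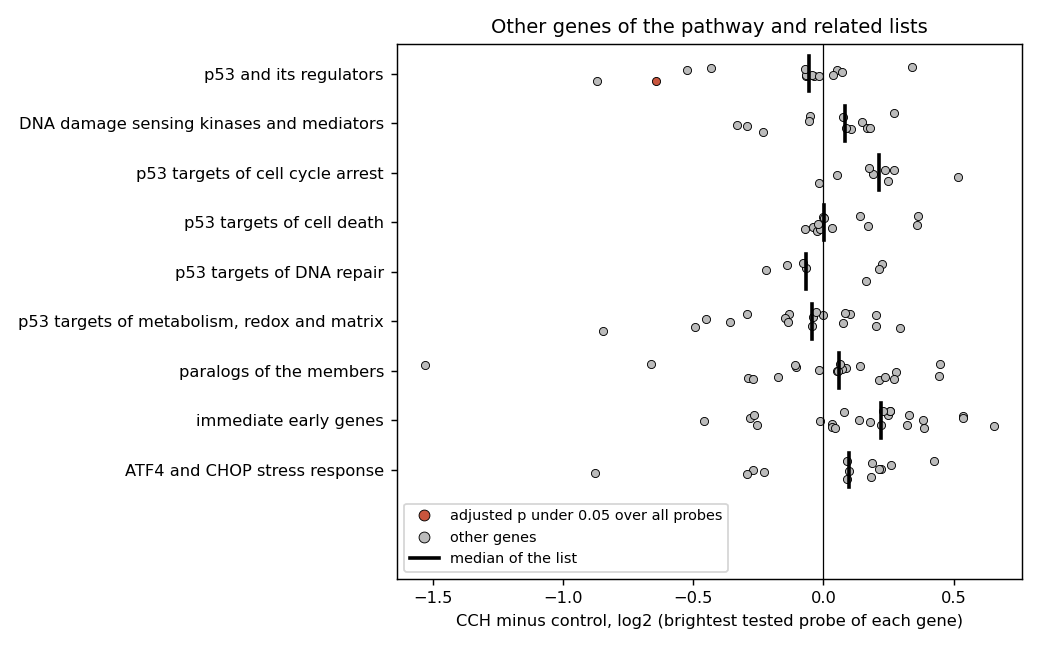
Horizontal axis: difference between diets in log2, CCH minus control, of the brightest tested probe of each gene (4 rats per group); vertical axis: gene lists, with a black bar at each list's median. Usp7, in the top list at -0.64, is the single gene with an adjusted p under 0.05, and list medians lie between -0.07 and 0.22.

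Paralogs of the 9 genes had 12 of 20 tested genes higher, with a median of 0.06 and no call (2 higher and 2 lower with an unadjusted limma p under 0.05). Ccng2, the other cyclin G gene, differed by 0.45 ± 0.11 (SE, limma adjusted p = 0.111), where Ccng1 did not separate the groups. Batf, a relative of Atf3, differed by -1.53 ± 0.37 (SE, limma adjusted p = 0.111) and was well above background in 2 of 4 CCH rats. Btg3 differed by 0.28 ± 0.15 (SE, limma adjusted p = 0.426), and by 0.43 without CCH replicate 1, where it was called.

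Since Atf3, Btg2 and Gadd45b are also activity-induced or stress-induced genes, those programmes were set beside them. Of 23 tested immediate early genes 18 were higher and 5 lower in CCH rats, with a median of 0.22 and no call (4 higher and 1 lower with an unadjusted limma p under 0.05). Their mean log2 signal was 0.59, 0.68, 0.52 and 0.53 in control rats 1 to 4. In CCH rats 1 to 4 it was 0.42, 0.88, 0.83 and 0.81. CCH rat 1 was thus below every control on this mean, and the other CCH rats were above every control. Fos, the standard marker of recent neuronal activity, was at -0.40 ± 0.07 (SD, n = 4) in control and -0.07 ± 0.09 (SD, n = 4) in CCH rats, without overlap (difference 0.33 ± 0.09, SE, limma adjusted p = 0.132). Junb differed by 0.39 ± 0.10 (SE, limma adjusted p = 0.139), and Jun by -0.46 ± 0.19 (SE, limma adjusted p = 0.296). Of 13 genes of the ATF4 and CHOP stress response, which induces Atf3, 9 were higher, with a median of 0.10 and no call (1 lower with an unadjusted limma p under 0.05). Atf4 differed by -0.27 ± 0.10 (SE, limma adjusted p = 0.258) and Ddit3, which encodes CHOP, by 0.09 ± 0.10 (SE, limma adjusted p = 0.725).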

How the data were processed

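RNA from 1 hippocampus sample per rat was labelled with Cy3 and hybridised to 1-colour Agilent rat arrays. The deposited intensity per spot is a linear, background-subtracted signal that the authors extracted with Agilent Feature Extraction 9.5, per the submitters' processing notes and the file headers, with no normalization between arrays. Probes were named by matching RefSeq accessions to a GRCr8 gene table (15184 of 41012 probes). The share of spots well above background was 76.3% to 79.9%, and 0 spots were saturated.

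The log2 signal minus each array's 75th percentile was averaged over the spots of a probe, leaving out spots with an outlier mark. Tested probes were well above background on at least 4 of 8 arrays and had at least 3 values per group. The diets were compared with limma (version 3.58.1, under R 4.3.3), using lmFit, eBayes and Benjamini-Hochberg adjustment over 31618 probes at a threshold of 0.05; the fit was tested on simulated data. Each array is 1 rat, per the titles.

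The 9 genes and all lists were chosen with earlier results of these data known. Beyond the 9 genes, the text names called genes, and otherwise up to 3 genes per direction and list with the smallest unadjusted p; genes called under another setting and Gadd45g, Bbc3, Ddit3 and Cd3d were added after their values were seen. A gene that this rule names is not reported here, although counts include it. Same-numbered rats deviated together with r from -0.01 to 0.25, so replicate numbers were not used as pairs. The mean spot signal was not used here, so normexp correction took the median signal. The dates and order of dissection were not used here.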

Additional observations from a re-analysis of the deposited data

Results flagged for a closer look

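Dixon's test for a sample far from the others was applied to the 12 probes in each group of 4, 24 groups in all, and chance marks about 1 group in 20. It marked 1. Control rat 2 had a log2 signal of 3.37 for the Ccng1 probe A_44_P367761, with the next highest control at 3.06. The gap was 0.865 of the group's range, above Dixon's critical value. The other Ccng1 probe read 2.93 in that rat, inside its group.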

How the results depend on the processing

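Limma called 55 probes (24 higher, 31 lower), 1 of the 11 probes of the p53 targets (Rbm38) and 1 of 88 other pathway genes (Usp7). With normexp these counts became 246 (69 higher, 177 lower), 2 and 2; with median minus local background 115 (27 higher, 88 lower), 1 and 1; with no detection filter 29, 1 and 0 (12 pathway genes with an unadjusted p under 0.05); with detection on all 8 arrays 209, 2 and 2; and with a trended and robust variance 215, 2 and 2. The replicate number as a block gave 0, 0 and 0 calls, with 4966 probes, 6 of the p53 target probes and 14 pathway genes at an unadjusted limma p under 0.05; the numbers did not pair the rats. Leaving out 1 array gave 0 to 729 calls, 0 to 3 among the p53 targets and 0 to 6 among the pathway genes, and the highest of each came without CCH replicate 1 (729 calls, 419 higher). Keeping marked spots, the deposited value table, quantile normalization and scaling to the median or to the probes detected on every array kept all 3 counts within 1.5 times. With probes averaged per gene the 1 pathway call was Plk2, and Usp7 was at -0.40. Rbm38 stayed between 1.18 and 3.09 over 19 settings, and Bax, Gadd45a, Gadd45b, Atf3 and Btg2 moved by less than the spread between rats and kept their sign in all 19. The sign of Cdkn1a turned in 2 settings, of the brighter Mdm2 probe in 1 and of 1 Ccng1 probe in 4. The causes of these changes were not tested. A slide block was not run, because slide equals diet. Dim signal over background limits Rbm38 in the controls and the second Cdkn1a probe, and 4 rats per group limit every value.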

Other observations

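The genes most like Rbm38 across the 8 arrays, among 9732 other named genes, were Or10ak14 (Pearson r 0.978), Ip6k2 (0.969), Cd3e (0.965), Rdx (0.964) and Pnlip (0.960). Those most like Bax were Ubl5 (0.976), Cyp4a2 (0.967), Pnlip (0.966), Prpf4b (0.966) and Tpra1 (0.965). All 9 genes were higher in CCH rats, by 0.18 (Prpf4b) to 1.02 (Cd3e), and the diets differ in both Rbm38 and Bax, so these correlations share the split between the groups and slides and are a description. Cd3e, a T cell receptor chain gene and a member of the leukocyte marker list, was at -3.60 ± 0.14 (SD, n = 4) in control and -2.58 ± 0.24 (SD, n = 4) in CCH rats (limma adjusted p = 0.0432; 0.0281 to 0.172 over the other settings). The Cd3e signal was dim, and its difference of 1.02 was 0.50 with normexp. Of the 7 tested leukocyte markers 3 were higher and 4 lower. The T cell gene Cd3d differed by -0.04 ± 0.10 (SE, limma adjusted p = 0.900) and Cd3g by -0.70 ± 0.47 (SE, limma adjusted p = 0.528).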
